A study of Mus musculus with 2 samples.

Results

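The genes described here encode the laminin-containing sheet on which lung cells sit and the receptors that hold cells to it. They are 5 laminin alpha, 3 laminin beta and 2 laminin gamma chains, 4 proteins that link laminin to the rest of the sheet, and 17 integrin alpha and 8 integrin beta subunits. They were chosen by name and role, by a rule that uses no measured value, and all 39 were found by gene identifier among the 43346 mouse genes in the tables of both libraries. The libraries hold total RNA of lung from mice of strain B6NCrl on postnatal day 0, with both lungs of 1 pup in each library. Pup 1 is replicate 1 and pup 3 is replicate 2. Both come from pregnancy number 1 and share a donor identifier in the labels, which record no sex and name no treatment or altered allele, so that the pup numbers alone separate the samples. With 1 group of n = 2 there is no comparison of conditions, so the measurements are levels, the balance between chains that assemble together, and the difference between the pups.

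Basement membranes are thin sheets of extracellular matrix under epithelium and endothelium and around muscle cells. Laminins, their main adhesive proteins, are secreted as heterotrimers of an alpha, a beta and a gamma chain and are numbered by their chains, so that laminin-511 holds alpha5, beta1 and gamma1. Integrins are receptors made of an alpha and a beta subunit that cross the cell membrane and connect the matrix to the cytoskeleton. In the lung, thin basement membranes between alveolar epithelium and capillaries form part of the barrier that gases cross.

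Expected counts summed to 42189536 in pup 1 and 37026165 in pup 3. The lung label was checked against markers: all 6 alveolar type 2 and all 6 alveolar type 1 markers were above TPM 1 in both pups, and Sftpc, the surfactant protein C gene, stood at 77317 and 68981 TPM in pups 1 and 3. Endothelial markers (5 of 5 detected) summed to 695 and 743 TPM, and fibroblast markers (5 of 5) to 1953 and 1877 TPM. Cardiac and skeletal muscle markers (5 of 6) summed to 571 and 649 TPM, while lymphocyte markers (2 of 5) summed to 5.92 and 7.66 TPM. In bulk RNA, fewer cells of a type and less RNA per cell cannot be told apart.

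Most of the 39 genes were well expressed. TPM is a per-length level scaled to the same total in each library, and 34 of the 39 were at TPM 1 or more in both pups. The other 5 were under TPM 1 in both: Itgb8, Lama1, Itga10, Itga11 and Itgae. The mean TPM was at least 20 for 17 genes and at least 50 for 10, and only Itgb1 passed 100. The median of the 39 mean levels was 17.7 TPM, beside 13.9 TPM over the 14343 genes detected in both pups. Their TPM summed to 1274 in pup 1 and 1351 in pup 3, and Itgb1, the integrin subunit with the most partners, held 24.0% of the mean sum. When the genes were ordered by mean TPM, the values of the 2 pups overlapped in 15 of the 38 neighbouring pairs. That overlap sets values of different pups against each other, so such a pair can still keep its order within each pup. Itga7 (9.01 and 10.8 TPM in pups 1 and 3) above Lama2 (7.89 and 9.41 TPM) was 1 such pair.

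**Figure D1:**
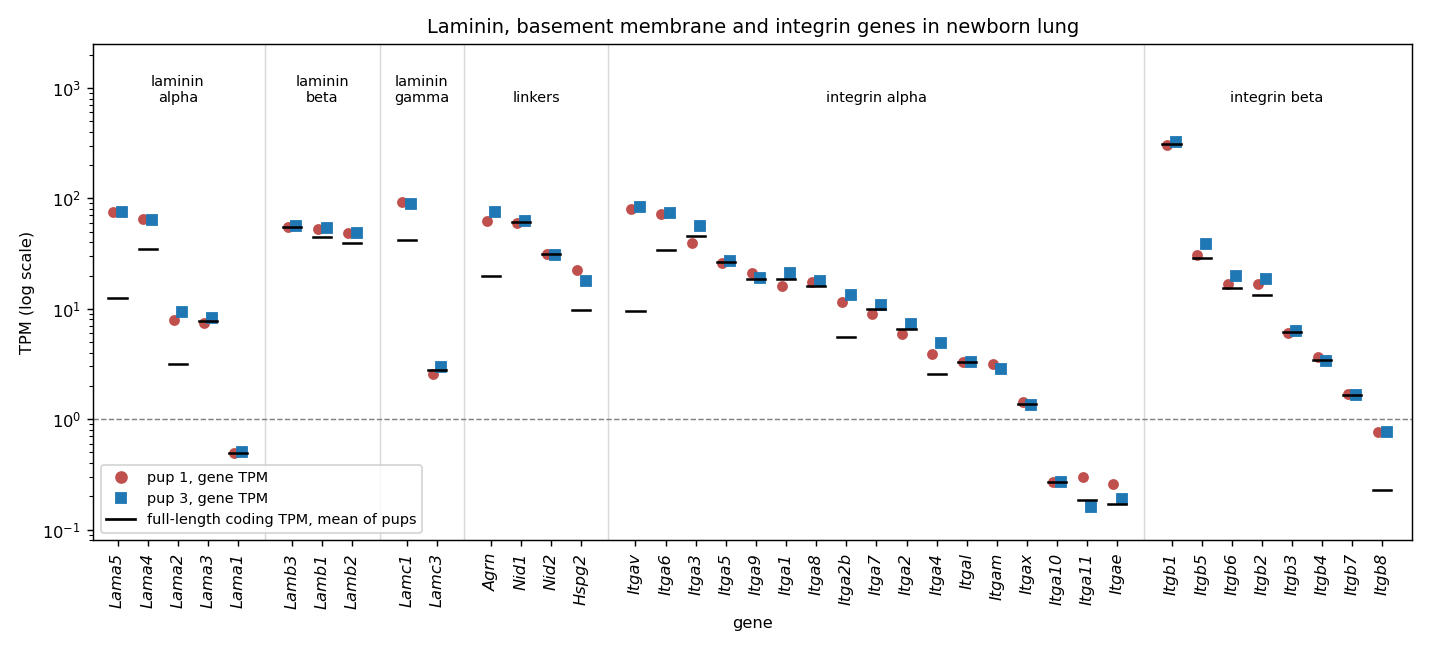
TPM on a log axis (vertical) for the 39 genes (horizontal, grouped by role), with pup 1 as circles, pup 3 as squares and the mean full-length coding TPM as a black bar. Itgb1 lies above all others at 303 and 327 TPM, 5 genes lie under the dashed line at TPM 1, and the black bar falls well below the points for Lama5 and Itgav. No bar is drawn for Itgam.

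Among the laminin alpha chains, which carry the main cell-binding domains, alpha4 and alpha5 stood far above the other three by gene TPM. Lama4 (chr10:38965515-39110188, plus strand), known from endothelial and mesenchymal basement membranes, was at 64.8 TPM in pup 1 and 63.7 TPM in pup 3. Lama5 (chr2:180176373-180225859, minus strand), the alpha chain of laminin-511 and laminin-521 and widespread in epithelial basement membranes, was at 75.5 TPM in pup 1 and 74.6 TPM in pup 3. Both pups of each gene lay close together, and the pups of Lama4 lay below those of Lama5. Lama2, the alpha chain of muscle laminin-211, followed at 7.89 and 9.41 TPM, and Lama3, the alpha chain of laminin-332, at 7.38 and 8.22 TPM. Lama1, known mainly from early embryonic basement membranes, was at 0.49 and 0.50 TPM, on 150 and 129 expected counts. By gene TPM, Lama4 and Lama5 together held most of the alpha-chain sum, with 41.5% and 40.7% in Lama4 and 48.4% and 47.7% in Lama5.

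The order of alpha4 and alpha5 turned round when only long transcripts were counted. A gene's TPM here is the sum over its annotated transcripts, each divided by its own effective length, so a short model with few reads can add much TPM. After these values were seen, a full-length coding TPM was added, which sums the protein-coding transcripts whose coding sequence is at least 50% as long as the longest of the gene. By that measure Lama4 stood at 33.1 and 36.8 TPM and Lama5 at 12.0 and 13.2 TPM in pups 1 and 3. Lama4 was then 2.77-fold above Lama5 (log2 1.47 ± 0.0133, SD, n = 2), against 0.856-fold by gene TPM (log2 -0.22 ± 0.00440). It was 2.50-fold above when all counts of a gene were divided by the effective length of its longest coding transcript, a measure also added after these values were seen. By expected counts, which are not per length, Lama4 had 6910 and 6436 and Lama5 5298 and 4839. The shares of the alpha-chain sum by full-length coding TPM were 59.3% and 59.2% for Lama4 and 21.5% and 21.2% for Lama5. Lama3 stood at 0.619 of the full-length TPM of Lama5, against 0.104 of its gene TPM. The full-length measure keeps a shorter coding form of Lama3 but drops the short models of Lama5. With all counts over the longest coding transcript Lama3 was at 0.383 of Lama5, and by expected counts at 0.354.

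The short models of Lama5 lie at its 3′ end. Lama5-202, Lama5-203 and Lama5-204, annotated as processed transcripts of 451, 734 and 478 bases, lie wholly inside the exons of the full-length model Lama5-201 (11388 bases), between exons 67 and 79 of its 79. Together they held 84.1% of the TPM but 17.4% of the expected counts of Lama5 in pup 1, and 82.3% of the TPM and 15.5% of the counts in pup 3. Lama4-207, a short retained-intron model over exons 37 and 38 of 38, held 45.6% and 38.3% of Lama4 TPM on 5.68% and 4.29% of its counts. The leading short model of Lama2 lies at the other end: Lama2-206, 643 bases over exons 2 to 4 of 65, held 49.9% and 38.6% of the TPM. Whether such reads came from separate short transcripts or from parts of the long ones was not tested.

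Lama3 has a short and a long coding form, known as alpha3A and alpha3B, and the TPM estimates of the 2 were similar. Lama3-202, which encodes 1724 amino acids, held 55.7% and 52.7% of Lama3 TPM in pups 1 and 3. Lama3-201, which encodes 3330 amino acids, held 44.3% and 47.3%. By TPM the short form was the higher one in both pups. By expected counts the long form was higher, at 1103 and 1114, against 723 and 649 for the short form. The span of Lama3-202 lies in the 3′ part of that of Lama3-201, and the split of reads between them was not tested.

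The 3 laminin beta chains had nearly equal levels. Lamb1 (chr12:31265234-31329644, plus strand), the beta chain of most laminins of early tissues, was at 53.0 and 53.3 TPM in pups 1 and 3, and Lamb2, common at mature vessels and synapses, at 48.4 and 48.9 TPM. Lamb3, the beta chain of laminin-332, was at 55.2 and 55.9 TPM. The pups of each gene differed by less than the genes did, yet Lamb1 was only 1.09-fold above Lamb2. Full-length coding TPM kept Lamb3 at 55.1 and 55.6 and gave 46.0 and 43.9 for Lamb1 and 38.7 and 40.9 for Lamb2. The span of Lamb3 holds Hsd11b1 and G0s2 on the opposite strand, with 6694 and 4727 counts in pup 1. Whether counting used strand is not given in the sources used here.

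Of the gamma chains Lamc1 and Lamc3, Lamc1, which most laminins share, was by far the higher. Lamc1 (chr1:153218922-153332786, minus strand) was at 93.4 TPM in pup 1 and 89.1 TPM in pup 3, the highest gene TPM of the 10 laminin genes described here in both. Lamc3, a gamma chain of few tissues, was at 2.59 and 2.98 TPM, so that Lamc1 held 97.3% and 96.8% of the TPM of these 2 genes. Lamc1-204, a coding model of 1447 bases over exons 23 to 28 of 28, held 53.9% and 51.1% of Lamc1 TPM on 17.7% and 16.1% of its counts. Full-length coding TPM, which drops that model, was 41.9 and 42.5, below that of Lamb3 and Lamb1 in both pups. By expected counts, and by all counts over the longest coding transcript, Lamc1 was above Lamb3 and Lamb1 in both pups.

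Chains that assemble together were then set side by side within each pup. The alpha chains summed to 156 TPM in both pups and the beta chains to 157 and 158 TPM in pups 1 and 3. Their log2 ratio was -0.0104 ± 0.00738 (SD, n = 2). The alpha chains summed to 0.420 of the beta chains by full-length coding TPM (55.8 and 62.2, against 139.8 and 140.3 TPM; log2 -1.25 ± 0.11), and to 0.692 by expected counts. The near equality by gene TPM therefore did not hold once short models were set aside. Over the gamma chains Lamc1 and Lamc3 the alpha sum had a log2 ratio of 0.73 ± 0.0442 by gene TPM and 0.39 ± 0.0883 by full-length coding TPM, but it turned to -0.66 with all protein-coding transcripts, short ones included. That gamma sum holds these 2 chains alone.

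Of 12 laminin trimers made of these chains, the alpha chain was the lowest of the 3 chains in 6 by gene TPM and in 10 by full-length coding TPM, in both pups. The trimers share chains, so these counts follow from the chain levels given above and are not separate observations. In the laminin-411 and laminin-511 sets the lowest chain was Lamb1 by gene TPM, and Lama4 or Lama5 by full-length coding TPM. Lama3 and Lamb3 assemble together in laminin-332, the laminin of hemidesmosomes. Lama3 was at 7.38 and 8.22 TPM, against 55.2 and 55.9 TPM for Lamb3, a 7.13-fold gap in favour of Lamb3 (log2 -2.83 ± 0.0986, n = 2). The gap was 7.11-fold by full-length coding TPM and 3.63-fold by expected counts.

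The linker proteins join laminin to collagen IV and to cell surfaces. Nid1 (chr13:13437551-13512269, plus strand), nidogen-1, which binds the gamma1 chain of laminin and collagen IV, was at 59.95 TPM in pup 1 and 62.9 TPM in pup 3, and its relative Nid2 at 31.4 and 30.9 TPM. Nid1 exceeded Nid2 1.97-fold (log2 0.98 ± 0.0639, n = 2). Each has a single annotated transcript in the tables, so their full-length level equals the gene level. The span of Nid2 overlaps that of Rtraf on the opposite strand. Rtraf had 5589 and 4791 counts in pups 1 and 3, beside 4846 and 4066 for Nid2. Since use of strand in counting is not given, the level of Nid2 is uncertain. By full-length coding TPM, Nid1 was the second highest of the genes described here, after Itgb1.

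Agrn and Hspg2 encode agrin and perlecan, large heparan sulfate proteoglycans of basement membranes. Agrn (chr4:156165290-156197488, minus strand) was at 61.8 and 75.8 TPM in pups 1 and 3, and Hspg2 at 22.4 and 17.96 TPM. The pups of Agrn and Hspg2 lay in opposite order. Both values rest partly on short 3′ models. Agrn-205, a retained-intron model of 2071 bases over exons 32 to 36 of 36, held 70.3% and 68.6% of Agrn TPM on 40.5% and 39.1% of its counts. Hspg2-202, 820 bases over exons 96 and 97 of 97, held 56.5% and 45.8% of Hspg2 TPM on 6.22% and 4.14% of its counts. Full-length coding TPM was 17.5 and 22.3 for Agrn and 9.74 in both pups for Hspg2, a 2.03-fold difference where gene TPM gave 3.41-fold and all counts over the longest coding transcript 3.38-fold.

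In all, 11 of the 39 genes had a gene TPM over 1.5 times their full-length coding TPM. The largest gaps were 8.53-fold in Itgav, 5.96-fold in Lama5 and 3.46-fold in Agrn. Short models with 10% or more of a gene's TPM in a pup were then located. In 8 of the 11 genes such a model reached the last exon of the full-length transcript. The other 3 were Lama2, Itga4 and Itgb8, whose models of that share lay in the 5′ part. A smaller Lama2 model, Lama2-203, with 4.09% and 2.64% of TPM in pups 1 and 3, lay at the 3′ end. Itgam has no full-length value, because its leading transcript is not in the annotation used for names.

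**Figure D2:**
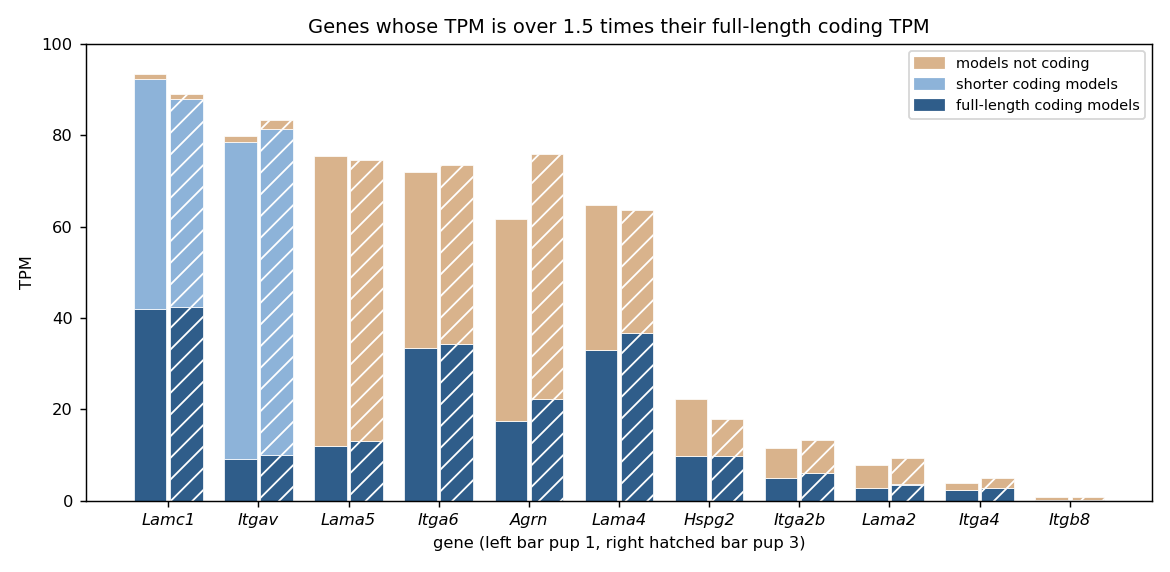
TPM (vertical, from 0) of the 11 genes whose gene TPM was over 1.5 times the full-length coding TPM, stacked by kind of transcript model, with pup 1 as the left bar and pup 3 as the right hatched bar of each gene. Full-length models (darkest) make up 15.9% and 17.7% of Lama5 and 11.4% and 12.0% of Itgav in pups 1 and 3.

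Integrin beta1 dominated the receptor side. Itgb1 (chr8:128685654-128733200, plus strand) was at 303 TPM in pup 1 and 327 TPM in pup 3, which placed it at rank 446 of all genes. It held 79.9% and 78.7% of the TPM of the 8 beta subunits. Of its TPM, 99.6% lay in Itgb1-201, which encodes 798 amino acids. Itgb5, a partner of alphav that binds vitronectin, followed at 30.6 and 38.3 TPM. Itgb6, the epithelial partner of alphav that activates latent TGF-beta, was at 16.8 and 19.6 TPM, and Itgb8, another activator of latent TGF-beta, at 0.76 TPM in both pups.

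By gene TPM the laminin-binding alpha subunits were led by alpha6. Itga6 (chr2:71745616-71858416, plus strand) was at 72.0 TPM in pup 1 and 73.4 TPM in pup 3, and Itga3 (chr11:95044474-95076801, minus strand), whose product is the main laminin receptor of lung and kidney epithelium, at 38.99 and 55.7 TPM. The order of these 2 subunits also turned with the measure. By full-length coding TPM Itga3 was at 37.8 and 54.2 and Itga6 at 33.5 and 34.3, so that Itga3 was 1.34-fold higher (log2 0.42 ± 0.35, n = 2), against 0.641-fold by gene TPM. All counts over the longest coding transcript gave 0.825-fold (log2 -0.28 ± 0.35). By expected counts the pups disagreed. Itga6 was higher in pup 1, at 7378 against 5824 for Itga3, and lower in pup 3, at 6395 against 7088. Itga6-203, a processed transcript of 2721 bases over exons 25 and 26 of 26, held 44.5% and 44.1% of Itga6 TPM on 36.7% and 36.4% of its counts. Of those bases, 1677 lie outside the exons of the full-length model, and the full-length measure leaves out all reads given to Itga6-203. Itga7, the laminin receptor subunit of muscle, was at 9.01 and 10.8 TPM.

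Itga3 and Itga6 each have 2 known forms that differ in the tail inside the cell, A and B. The coding sequences around the point where the forms part are shown because the isoform shares turn on them. They were read from the GENCODE M21 transcripts (GRCm38), 5′ to 3′, with 30 shared bases in lower case and the first 60 bases particular to each form in capitals. Positions count from 1 at the first base of the start codon. The Itga6 stretches run over coding bases 3090 to 3179 and the Itga3 stretches over coding bases 3024 to 3113.
Itga6-201 (alpha6A, chr2:71786978-71856758, plus strand): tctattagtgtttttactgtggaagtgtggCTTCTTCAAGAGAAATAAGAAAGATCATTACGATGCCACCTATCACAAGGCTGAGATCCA
Itga6-202 (alpha6B, chr2:71786940-71856771, plus strand): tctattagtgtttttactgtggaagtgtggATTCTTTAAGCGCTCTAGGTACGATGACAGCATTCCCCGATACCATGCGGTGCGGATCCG
Itga3-201 (alpha3A, chr11:95044474-95076714, minus strand): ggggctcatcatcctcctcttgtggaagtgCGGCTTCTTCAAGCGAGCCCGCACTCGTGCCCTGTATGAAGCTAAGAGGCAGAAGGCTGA
Itga3-203 (alpha3B, chr11:95044474-95076801, minus strand): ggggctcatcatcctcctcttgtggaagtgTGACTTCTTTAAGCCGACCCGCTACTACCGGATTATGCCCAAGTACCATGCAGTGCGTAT
Of the 2 forms, A was the higher in both genes and both pups. Itga6-201 (1073 amino acids) held 40.0% and 45.5% of Itga6 TPM in pups 1 and 3, and Itga6-202 (1091 amino acids) held 5.14% in pup 1 and 0.00% in pup 3. Itga3-201 (1053 amino acids) held 94.2% and 85.1% of Itga3 TPM, and Itga3-203 (1068 amino acids) 0.08% and 11.4%. The minor forms thus differed between the pups in opposite directions. Posterior mean shares, an alternative estimate in the deposited tables, were closer, at 5.39% and 2.31% for Itga6-202 and 4.02% and 11.3% for Itga3-203.

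Integrin alpha6beta4 is the receptor of hemidesmosomes, in which beta4 pairs with alpha6 alone. Itga6 stood 20.7-fold above Itgb4 (72.0 and 73.4 TPM, against 3.67 and 3.37 TPM) and 9.84-fold above it by full-length coding TPM. Itgb4-202, which encodes 1753 amino acids, led with 56.6% and 50.2% of Itgb4 TPM. The markers of basal and stratified epithelium, where hemidesmosomes are best known, had 2 of 4 genes under TPM 1 in both pups (Krt5 and Trp63), and the list summed to 27.0 and 53.7 TPM. The part of such cells in the level of Itgb4 was not tested.

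The collagen-binding subunits pair with beta1 and were lower. Itga1, a receptor subunit for collagen IV, was at 16.0 and 21.1 TPM in pups 1 and 3, and Itga2, known for binding collagen I, at 5.90 and 7.31 TPM. Itga10, known from cartilage, was at 0.27 TPM in both pups, and Itga11, of mesenchymal cells, at 0.30 and 0.16 TPM. Beta1 exceeded these 4 partners 17.1-fold, 47.9-fold, 1165-fold and 1436-fold, in that order. Pelo lies inside Itga1 on the same strand, with 376 and 354 counts beside 3036 and 3406 for Itga1, so the split of reads between them is uncertain.

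Subunits that bind the Arg-Gly-Asp motif of fibronectin, vitronectin and nephronectin form the largest class of pairs. Itgav (chr2:83724397-83806916, plus strand) was the highest alpha subunit by gene TPM, at 79.8 TPM in pup 1 and 83.4 TPM in pup 3. Itga5, the fibronectin receptor subunit, was at 26.0 and 27.1 TPM, and Itga8, the nephronectin receptor subunit of mesenchyme, at 17.6 and 17.8 TPM. Npnt, which encodes nephronectin, stood at 308 and 262 TPM, so that Itga8 was at 0.0624 of the TPM of its ligand. Itga2b, the platelet fibrinogen receptor subunit, was at 11.5 and 13.3 TPM. Platelet and megakaryocyte markers (4 of 4 detected) summed to 173 and 162 TPM, and their part in the level of Itga2b was not tested.

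The rank of Itgav rests on 1 short model. Itgav-205 has 463 bases, all within exons 29 and 30 of the 30 exons of Itgav-201 (7054 bases), and held 85.5% and 84.1% of Itgav TPM on 27.7% and 26.2% of its counts. By full-length coding TPM Itgav was at 9.12 and 10.0, which is 0.361 of the level of Itga5, where gene TPM put it 3.08-fold above Itga5. All counts over the longest coding transcript gave 0.507. The coding part of Itgav-205 is shown because most Itgav TPM rests on that model. Its 178 bases with the stop codon equal coding bases 2958 to 3135 of Itgav-201, where the coding sequence ends, and all are in capitals.
Itgav-205 (chr2:83802921-83806916, plus strand): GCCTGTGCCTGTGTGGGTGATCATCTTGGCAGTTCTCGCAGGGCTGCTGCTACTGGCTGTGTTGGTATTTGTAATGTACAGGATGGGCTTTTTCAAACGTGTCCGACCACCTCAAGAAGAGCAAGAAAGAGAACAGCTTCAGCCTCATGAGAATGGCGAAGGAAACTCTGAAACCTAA
These bases belong to both models, and reads within them cannot be told apart by sequence.

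The balance between alphav and its partners changed with the measure. By gene TPM Itgav exceeded Itgb3 13.3-fold, Itgb5 2.38-fold, Itgb6 4.50-fold and Itgb8 107-fold. By full-length coding TPM it stood at 1.55-fold the level of Itgb3 and 41.6-fold that of Itgb8, but at 0.329 of Itgb5 and 0.621 of Itgb6. Against the sum of those 4 beta subunits, Itgav had a log2 ratio of 0.46 ± 0.14 by gene TPM (79.8 and 83.4, against 54.2 and 64.9 TPM) and -2.41 ± 0.0374 by full-length coding TPM (9.12 and 10.0, against 47.6 and 54.2 TPM). Itga2b was 2.01-fold above Itgb3, its partner on platelets, by gene TPM and at 0.905 of Itgb3 by full-length coding TPM.

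Itga9 and Itga4 bind tenascin-C and VCAM1, among other ligands. Itga9 was at 21.2 and 19.2 TPM in pups 1 and 3, and Itga4 at 3.88 and 4.92 TPM, below the level of Itga9 in both pups. Itga4 exceeded Itgb7, its partner on lymphocytes, 2.62-fold (3.88 and 4.92, against 1.70 and 1.64 TPM). The same ratio was 1.52-fold by full-length coding TPM and 6.53-fold by expected counts, which are not per length. Itgb1 was the far higher partner of Itga4. Madcam1, the gut ligand of alpha4beta7, had 0 and 1 expected counts.

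The leukocyte integrins share beta2, and the beta subunit stood above its partners. Itgal, the ICAM receptor subunit of leukocytes, was at 3.32 and 3.30 TPM in pups 1 and 3, Itgam, of neutrophils and macrophages, at 3.13 and 2.87 TPM, and Itgax, of dendritic cells and alveolar macrophages, at 1.43 and 1.33 TPM. The 3 alpha subunits summed to 7.88 and 7.50 TPM, against 16.8 and 18.6 TPM for Itgb2 (log2 -1.20 ± 0.16, n = 2). Macrophage and neutrophil markers (6 of 6 detected) summed to 678 and 675 TPM, and their part in these levels was not tested. Itgae, which binds E-cadherin with beta7 on lymphocytes, was at 0.26 and 0.19 TPM on 32 and 20 counts.

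Over 23 known integrin pairs, the alpha subunit was above the beta subunit in both pups in 7 by gene TPM, and the beta subunit above the alpha in the other 16. The 7 were alpha6 with beta4, alphav with beta3, beta5, beta6 and beta8, alpha2b with beta3, and alpha4 with beta7. By full-length coding TPM the count was 4, and by expected counts 6. In all 12 pairs that hold beta1, beta1 was the higher subunit by each of these 3 measures. This follows from the level of Itgb1 alone, the highest of the genes described here by all 3. Those 12 outcomes, which are among the 16, are therefore not separate observations. The 12 alpha partners of beta1 summed to 291 and 321.1 TPM, against 303 and 327 TPM for Itgb1, a log2 ratio of -0.0416 ± 0.0245 (n = 2). By full-length coding TPM the sums were 175 and 203, against 302 and 325, a log2 ratio of -0.73 ± 0.0755, or 0.601-fold. Among the 12 partners, Itgav, Itga6 and Itga4 also pair with other beta subunits, so neither sum belongs to beta1 alone.

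**Figure D3:**
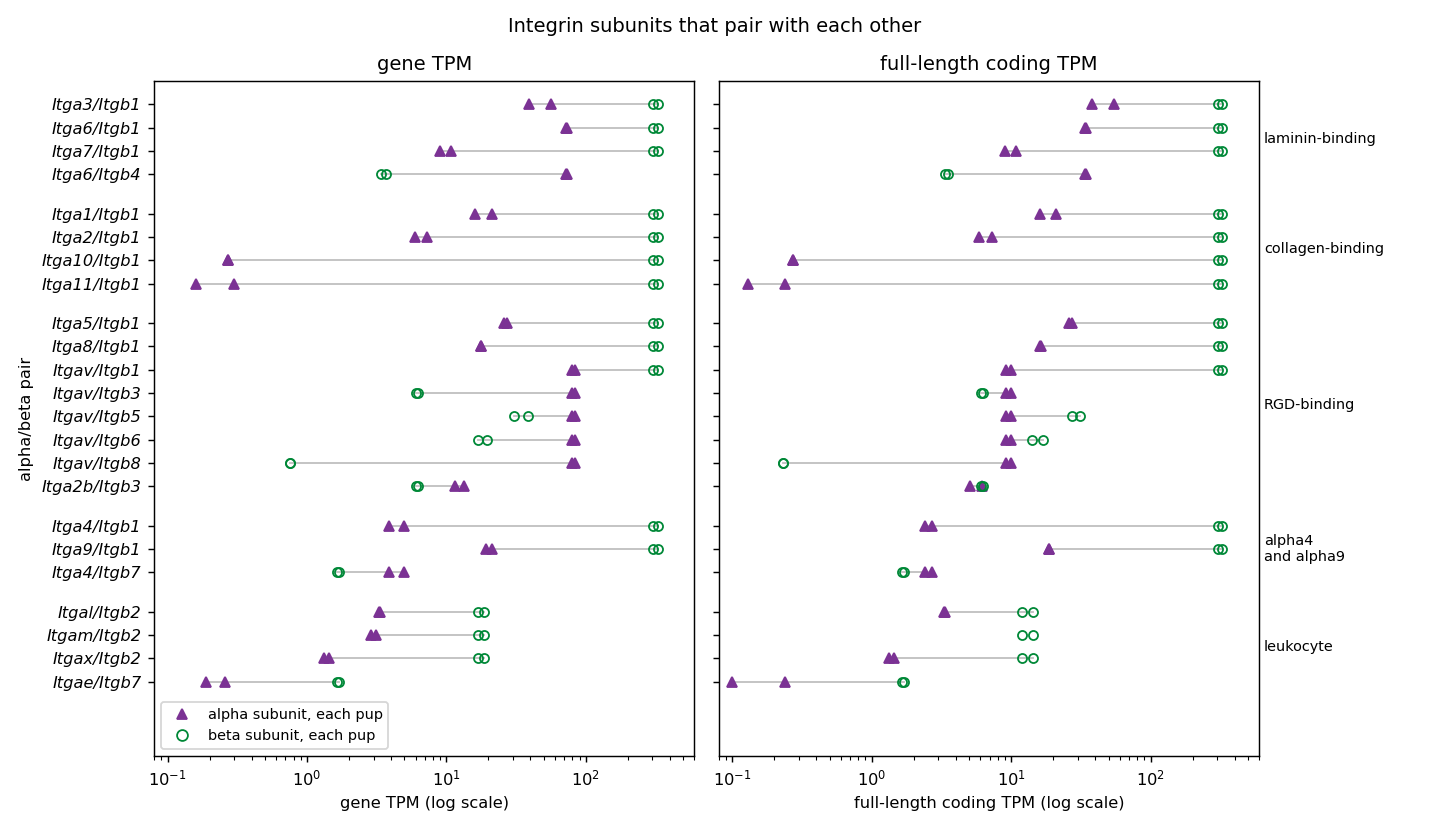
TPM on log axes (horizontal) of the alpha subunit (triangles) and the beta subunit (open circles) in each pup, for 23 integrin pairs (vertical, by class), with gene TPM on the left and full-length coding TPM on the right. Itgav lies right of Itgb5 and Itgb6 at 79.8 and 83.4 TPM on the left and falls left of them at 9.12 and 10.0 TPM on the right. Itgam has no full-length value.

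The transcript share of the 39 genes was mostly held by 1 model. The same transcript led in both pups in 35 genes, and in 30 of these it held over 50% of the TPM in both pups. A full-length coding transcript led in both pups in 29 genes. All of these counts include 8 genes with a single transcript in the tables, for which the outcome was fixed in advance. The leading transcript was not annotated as protein-coding in both pups in Agrn, Lama5, Lama2 and Itgb8, and the leading one of Itgam was not in the annotation. In Hspg2, Itga6 and Itgae it was coding in 1 pup only. Of the 182 transcripts of these genes in the tables, 180 were found in the later annotation.

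The 2 pups were close to each other for these genes. Between pup 1 and pup 3, 1 of the 39 genes passed the size rule, while 1.4% of 15790 genes with enough counts passed it (0.659% higher and 0.741% lower in pup 1). That rule asks for at least 2-fold, at least 50 counts over both libraries and a 95% counting interval that leaves out 1, on counts scaled by TMM. It sets 1 library against 1 library, so it has no replicate check and no p-value. The gene was Itga11, with 45 counts in pup 1 and 20 in pup 3, a ratio of 2.03 (1.17 to 3.63). With total counts as the scale it fell under 2-fold. At 1.5-fold it was still the only one of the 39, where 5.06% of all genes passed. The median log2 ratio was 0.0257 over the 39 genes and 0.00553 over all genes tested, and the median size of the log2 ratio was 0.11 over the 39 and 0.14 over all.

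Small differences were common. The counting interval left out 1 in 20 of the 39 genes, 8 higher and 12 lower in pup 1, where 46.2% of all genes tested did so (24.6% higher and 21.6% lower in pup 1). Itga3 had the largest of those under 2-fold, with 5824 and 7088 counts and a ratio of 0.742 (0.716 to 0.768). Itga1 followed at 0.804 (0.766 to 0.845), Itga2 at 0.855 (0.775 to 0.944) and Agrn at 0.856 (0.828 to 0.885). Lamb1 at 1.10 (1.07 to 1.13) and Hspg2 at 1.08 (1.04 to 1.13) were higher in pup 1. The split into higher and lower depends on the scale, here a TMM size of pup 1 over pup 3 of 1.11. Spike-in totals gave a size of 1.003, by which every ratio of pup 1 over pup 3 would be higher. No interval count is given on that scale. Alveolar type 1 markers (6 of 6 detected) summed to 5016 and 5403 TPM, though Rtkn2 among them was higher in pup 1, at 181 and 150 TPM. Alveolar type 2 markers (6 of 6) went the other way, at 84609.5 and 75812.5 TPM, though Lamp3 and Abca3 among them were higher in pup 3. On scaled counts the median log2 ratio was -0.0319 over the type 1 list and 0.19 over the type 2 list. The markers of basal and stratified epithelium also moved both ways, with Krt15 at 24.8 and 52.0 TPM and Krt14 at 2.04 and 1.56 TPM. The part of these cell types in the difference of Itga3 was not tested.

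**Figure D4:**
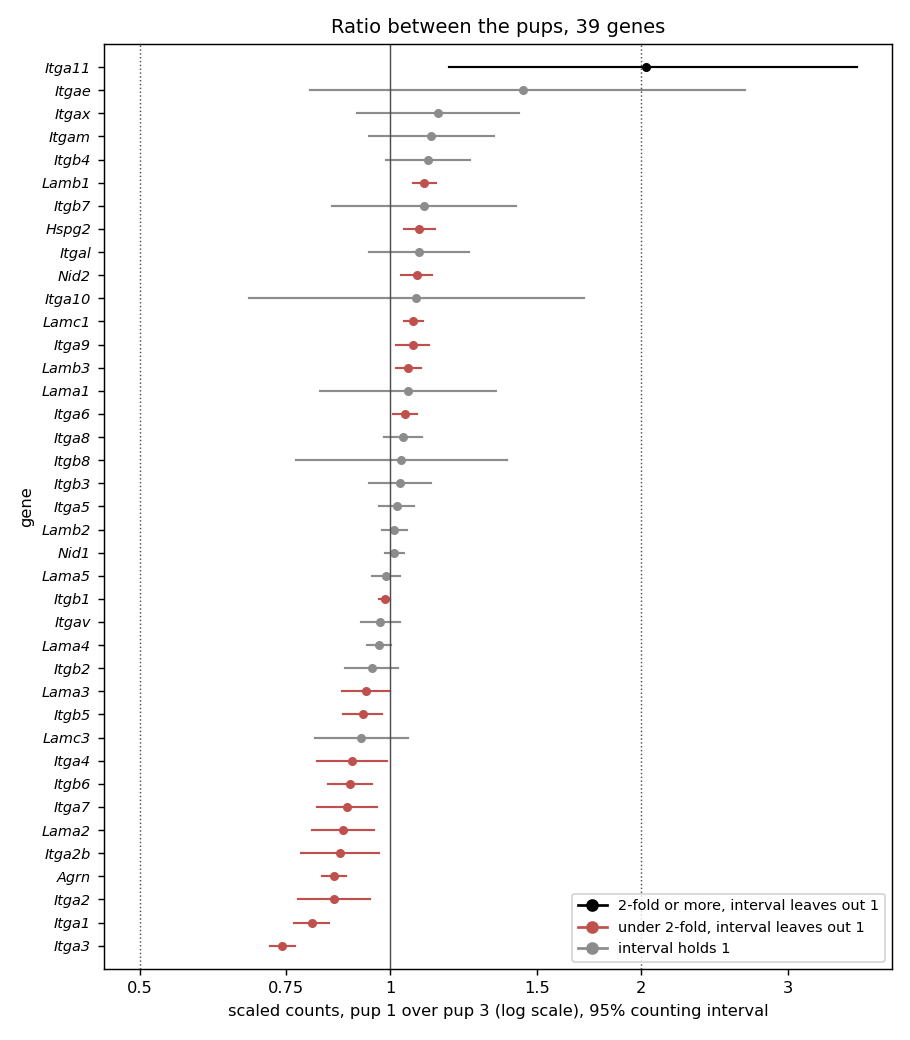
Ratio of scaled counts, pup 1 over pup 3, on a log axis (horizontal), for the 39 genes (vertical), with 95% counting intervals as lines. Only Itga11 passes 2-fold with an interval that leaves out 1, and Itga3 lies lowest at 0.742. The ratios are on the TMM scale, and the intervals cover counting error only.

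Other genes of the pathway were described by lists of 58 genes, of which 55 were at TPM 1 or more in both pups. Collagens and linkers of the basement membrane (18 of 20) were led by Sparc, a matrix glycoprotein that binds collagen, at 3388 and 3196 TPM in pups 1 and 3. Npnt and Col4a1, the alpha1 chain of collagen IV, came next, with Col4a1 at 285 and 272 TPM. Other matrix receptors (8 of 8) were led by Bcam, a receptor for the laminin alpha5 chain, at 419 and 449 TPM, which is above Itgb1 in both pups. Sdc1 and Sdc4, syndecans, were next at 265 and 269 TPM and at 191 and 256 TPM.

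Integrin ligands outside the laminins (12 of 13) were led by Icam2 at 289 and 251 TPM, Icam1 at 203 and 304 TPM and Fn1, fibronectin, at 262 and 223 TPM. Integrin adaptors (17 of 17) were led by Ilk, the integrin-linked pseudokinase, at 359 and 372 TPM, Lims1, its partner PINCH-1, at 281 and 275 TPM, and Fermt2, kindlin-2, at 243 and 254 TPM. Gene TPM also stood above full-length coding TPM here, which was 66.6 and 50.8 for Fn1, 86.8 and 90.7 for Fermt2 and 1811 and 1715 for Sparc. Among the 58, Smoc1, a calcium-binding matrix protein, alone passed the size rule, at 0.17 and 0.40 TPM and a ratio of 0.439 (0.235 to 0.791). Smoc1, Papln and Madcam1 were the 3 genes under TPM 1 in both pups.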

How the data were processed

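Total RNA longer than 200 nt was taken from lungs with the Ambion mirVana kit and 10 ng went into each library, per the labels. The labels also name spike-ins and a SMARTer low-input manual. Expected counts in the deposited tables are estimates, since a read that several features share is split among them. Deposited TPM divides those by effective length, and the deposited isoform percent is each transcript's part of its gene. Assembly mm10 and annotation M4 are per the files deposited with the libraries. For the aligner, the counter and strandedness: not given in the sources used here.

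Names, coordinates and transcript types came from GENCODE M21 (GRCm38), matched by identifier. After rounding of expected counts, edgeR 4.0.16 in R 4.3.3 gave TMM sizes with pup 1 at 1.11 times pup 3. Ratios are of scaled counts with exact conditional binomial 95% intervals, and 0.5 was added to counts for log2 ratios and for the 2-fold rule. The labels name no molecular identifiers, so intervals describe counting error alone. The size rule was tested on simulated data. Genes with a mean TPM of at least 20 are given per pup, others where a pair, a trimer or a rule names them. The genes and lists were chosen with earlier results of these data known. Alternatives were other scalings, measures and thresholds and leaving out a pup. An exact sign-flip test over 2 pups cannot go below p = 0.5, so none was run. No protein sequence was used here. Results that need 1 further gene of the lists are not reported here.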

Additional observations from a re-analysis of the deposited data

How the results depend on the processing

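The count of 34 genes at TPM 1 or more stayed within 27 to 36 under every alternative tried. The count past the size rule, 1, was 0 with total counts and 0 with deposited TPM + 1. The 7 integrin pairs with alpha above beta became 4 with full-length coding transcripts alone. The laminin alpha over beta log2 ratio of -0.0104 became -0.0396 with posterior mean TPM, -0.53 with expected counts, -1.27 with protein-coding transcripts, -1.25 with full-length coding transcripts, -1.10 with all counts over the longest coding transcript, and reversed to 0.54 without Lama3 and Lamb3. The alpha sum over Itgb1, -0.0416, became -0.11, -0.28, -0.73 and -0.53 with expected counts, protein-coding, full-length coding and longest-transcript measures. The alpha over gamma ratio, 0.73, reversed to -0.66 with protein-coding transcripts, which keep a short Lamc1 model. Full-length transcripts and the longest-transcript measure were chosen after seeing the data. By construction, the full-length measure drops short models and the longest-transcript measure divides their counts by a longer length, while the protein-coding measure drops non-coding models but keeps short coding ones; no further cause was tested. Leaving out each pup gave 34 and 34 genes, 7 and 7 pairs, -0.0156 and -0.00517 for alpha over beta, -0.0243 and -0.0589 for the Itgb1 ratio, and 32 and 35 genes (30 with both pups) with a leading transcript over 50%. Of 38 gene levels, 19 were marked as moved, against the SD between pups, with full-length coding transcripts. Itga10 was among them although its mean was 0.27 TPM by both measures, with an SD of 0. No paired analysis was possible because there is 1 group. Counts limit the 5 genes under TPM 1, 3 of which had fewer than 50 counts in both libraries.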
